A study of Mus musculus with 41 samples.

Results

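The comparison described here asked how microRNA levels in the spleen differed with loss of NOS2 when p53 was already absent and the mice had been treated with C. Parvum. It set 6 arrays of treated double knockout mice (p53-/-NOS2-/-, called DKO) against 5 arrays of treated p53 knockout mice (p53-/-NOS2+/+, called p53KO), 11 of the 41 arrays of the series. The arrays were chosen by genotype and treatment in the sample titles alone. All mice were of the C57BL strain, total RNA of whole spleen was measured, and both groups lacked p53 and received C. Parvum, an agent whose name the labels do not spell out. The other groups used for comparison were treated wild type (p53+/+NOS2+/+, WT, 5 arrays), treated NOS2 knockout (p53+/+NOS2-/-, NOS2KO, 5 arrays), and saline control p53KO (4 arrays) and DKO (6 arrays), with saline control WT and NOS2KO (5 arrays each) shown for single probes. Age, sex, dose and time after treatment are not given in the labels, nor whether the alleles were lost in every tissue. The submitters' design note counts 4 or 5 animals for a group, while the labels hold 6 DKO arrays in each treatment, so p-values measure the spread between arrays, which may in part be technical. The array carries microRNA probes and no p53 or NOS2 messenger RNA probe, so the genotypes could not be checked from the values.

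NOS2 encodes the inducible nitric oxide synthase, which activated macrophages and other cells use to make nitric oxide during infection and inflammation. p53 is a transcription factor that restrains growth after DNA damage, and nitric oxide is one of the signals known to activate it, while p53 in turn can repress NOS2 transcription. MicroRNAs are short RNAs that lower the output of messenger RNAs, chiefly by pairing through a seed at bases 2 to 8. In a spleen, bright microRNAs mark cell types: miR-451, miR-144 and miR-486 the red cell lineage, miR-223 granulocytes and monocytes, miR-150 and the miR-181 family lymphocytes.

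The mature sequences below, from RefSeq with the mouse assembly GRCm38.p6, are those of the microRNAs whose treated DKO and treated p53KO arrays lay furthest apart by p or did not overlap, followed by 3 that carry the comparisons with other groups or mark a cell type. Capitals mark the seed. Where a probe name gives no arm, the arm shown is the one that carried the plain name before arms were numbered, and the probe sequences themselves were not used here.
miR-218-5p: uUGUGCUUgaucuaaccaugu
miR-29b-3p: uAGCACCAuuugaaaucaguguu
miR-222-3p: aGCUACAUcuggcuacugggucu
miR-103-3p: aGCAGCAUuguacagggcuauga
miR-142a-5p: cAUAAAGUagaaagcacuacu
miR-181b-5p: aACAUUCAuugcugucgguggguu
miR-351-5p: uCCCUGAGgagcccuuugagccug
miR-341-3p: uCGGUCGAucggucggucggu
miR-451a: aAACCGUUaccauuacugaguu
miR-223-3p: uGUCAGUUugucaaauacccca
The seed of miR-29b is shared with miR-29a and miR-29c, that of miR-222 with miR-221, that of miR-103 with miR-107, that of miR-181b with miR-181a, miR-181c and miR-181d, and that of miR-351 with miR-125a and miR-125b. Changes of these seed sharers are given beside each other below, with 1 probe for each unless stated (miR-181d was not analysed here).

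Values are log2 signals after quantile normalization, a change is a mean treated DKO value minus a mean treated p53KO value, and a probe was tested where each group had at least 3 measured values. Of 637 probe rows, 348 could be tested, 270 held a value on all 11 arrays, and 99 held none on any of them. The number of measured probes per array stands in for depth. It ran from 339 to 425 in treated DKO (383.8 ± 29.8, SD, n = 6) and from 348 to 391 in treated p53KO (366.4 ± 15.7, SD, n = 5), a difference of 17.4 that an exact two-sided permutation test over 462 arrangements did not separate from 0 (p = 0.281). The mean correlation across probes between 2 arrays was 0.967 within treated DKO, 0.963 within treated p53KO and 0.959 between the groups. Array 6 of treated DKO stood apart, with a mean correlation of 0.941 to its own group and the fewest measured probes. It was also the only one of the 11 arrays whose probe for miR-370 was not above 10 as deposited (9.10, against 11.1 to 12.4 on the other 10), a value that splits all 41 arrays into 23 above and 18 not above. The labels do not say what that split stands for. Results below are therefore also given with only the arrays above it, 5 against 5.

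Markers of blood cells were present on every one of the 11 arrays, with miR-223 at 14.80 to 15.73 and miR-150 at 13.72 to 14.80. Signals of different probes cannot be compared as levels (miR-290, known from embryonic stem cells, read 15.55 to 15.98), so brightness alone does not identify the tissue. Markers of other tissues were mixed. Of the pancreas markers, miR-216a had no value on any array, miR-216b-a had one on p53KO array 3 (7.95) and DKO arrays 2, 4 and 6 (5.87 to 6.69), and miR-217-a had one on p53KO array 5 (5.87), while miR-217-p had one on all 5 p53KO (6.22 to 8.20) and 2 DKO arrays (8.18 and 5.87). miR-375, also of pancreatic islets, stood at 10.54 on treated p53KO array 3 and 10.15 on treated DKO array 4, against 6.88 to 8.62 on the other 9, and the group means were 8.21 ± 1.11 (SD, n = 6) in DKO and 8.44 ± 1.25 (SD, n = 5) in p53KO. The liver marker probe miR-122a-a had no value in treated p53KO and dim ones on 3 of the 6 treated DKO arrays (5.29, 6.73 and 6.23). The probe miR-122a-p had a value on treated p53KO array 4 (7.98) and on treated DKO arrays 3 and 5 (5.23 and 6.76). The muscle marker miR-1 had a mean of 10.68 in treated DKO and 9.99 in treated p53KO, a change of 0.69 ± 0.40 (SE, adjusted p = 0.836 by limma). Leaving out 1 array gave 0.31 to 0.89. Muscle miR-133a (probe miR-133a-5p-a) had a value on 5 of 6 DKO and 2 of 5 p53KO arrays. The probe miR-133a*-5p-a read 7.61 to 8.15 in treated DKO and 7.17 to 8.18 in treated p53KO, on all 11 arrays. The 2 muscle probes ending in -p that were tested had negative changes, with a median of -0.13. The part of carried-over tissue in other results was not tested.

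One RNA differed between the groups. Both probes of miR-801 were higher in treated DKO than in treated p53KO spleens, by 7.76-fold and 3.05-fold, and no other probe passed the threshold in either direction. RefSeq lists miR-801 as a synonym of Rnu11, the U11 small nuclear RNA (chr4:132270079-132270186, GRCm38.p6, an annotated snRNA of 108 bases). U11 is a part of the minor spliceosome, where it recognises the start of the rare U12-type introns, and it is not a microRNA. The share called was 2 of 348 probes (0.575%) by limma with Benjamini-Hochberg adjustment at 0.05. At an unadjusted p under 0.05 there were 21 probes.

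The probe miR-801-p read 12.17, 12.01, 10.80, 11.61, 11.43 and 12.45 on treated DKO arrays 1 to 6. On treated p53KO arrays 1 to 5 it read 8.93, 9.07, 8.47, 8.44 and 9.02. The groups did not overlap, and the lowest DKO array stood 1.73 above the highest p53KO array. The change was 2.96 ± 0.27 (SE, 95% interval 2.42 to 3.49, adjusted p = 1.3e-10 by limma), from 8.79 ± 0.31 (SD, n = 5) to 11.74 ± 0.59 (SD, n = 6).

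The probe miR-801-a read 10.71, 10.15, 9.25, 9.96, 9.84 and 10.59 in treated DKO. In treated p53KO it read 8.68, 8.85, 7.40, 8.56 and 8.87. These groups did not overlap either, with array 3 the lowest of each group. The change was 1.61 ± 0.27 (SE, 95% interval 1.07 to 2.15, adjusted p = 0.00011 by limma), from 8.47 ± 0.61 (SD, n = 5) to 10.08 ± 0.53 (SD, n = 6). With only the arrays above the miR-370 value the changes were 2.82 and 1.51, and both calls stood in that fit. The same fit also called miR-218-a, described below.

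**Figure D1:**
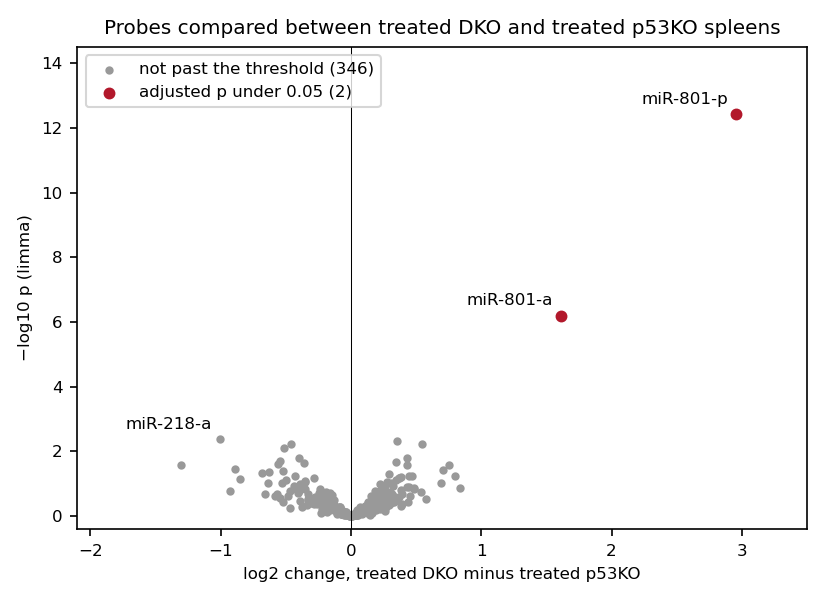
Each point is 1 of the 348 tested probes, with the log2 change of treated DKO minus treated p53KO spleens on the x axis and −log10 of limma's unadjusted p on the y axis. The 2 red points, both probes of miR-801, are past the adjusted threshold, and all other probes lie near the foot of the plot.

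Across the whole series miR-801 followed the double knockout genotype. In miR-801-p the 12 DKO arrays, treated and untreated, read 10.71 to 12.45, and the 29 arrays of the other 3 genotypes read 7.85 to 10.39. In miR-801-a the 12 DKO arrays read 9.08 to 10.71 and the other 29 read 7.39 to 8.87. Of the 227 probes measured on every array, these 2 (0.881%) were the only ones in which the DKO arrays did not overlap with all others. Full separation fixes the same outcome on both sides of the miR-370 value, so the ranges there are not further support. Among arrays above it, 6 DKO arrays read 10.80 to 12.17 in miR-801-p and 17 others read 7.85 to 9.25. Among arrays not above it, 6 DKO arrays read 10.71 to 12.45 and 12 others read 8.55 to 10.39. The highest of the others was untreated WT array 2.

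The other groups show how far loss of NOS2 or of p53 alone went with miR-801-p. Means were 9.22 ± 0.76 (SD, n = 5) in untreated WT, 8.99 ± 0.20 (n = 5) in treated WT, 8.69 ± 0.17 (n = 5) in untreated NOS2KO and 8.76 ± 0.51 (n = 5) in treated NOS2KO. Untreated p53KO stood at 8.87 ± 0.35 (n = 4) and untreated DKO at 11.01 ± 0.25 (n = 6). The mean of each single knockout group thus lay within the range of the WT arrays, and the order of those groups cannot be read beyond their spread.

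**Figure D2:**
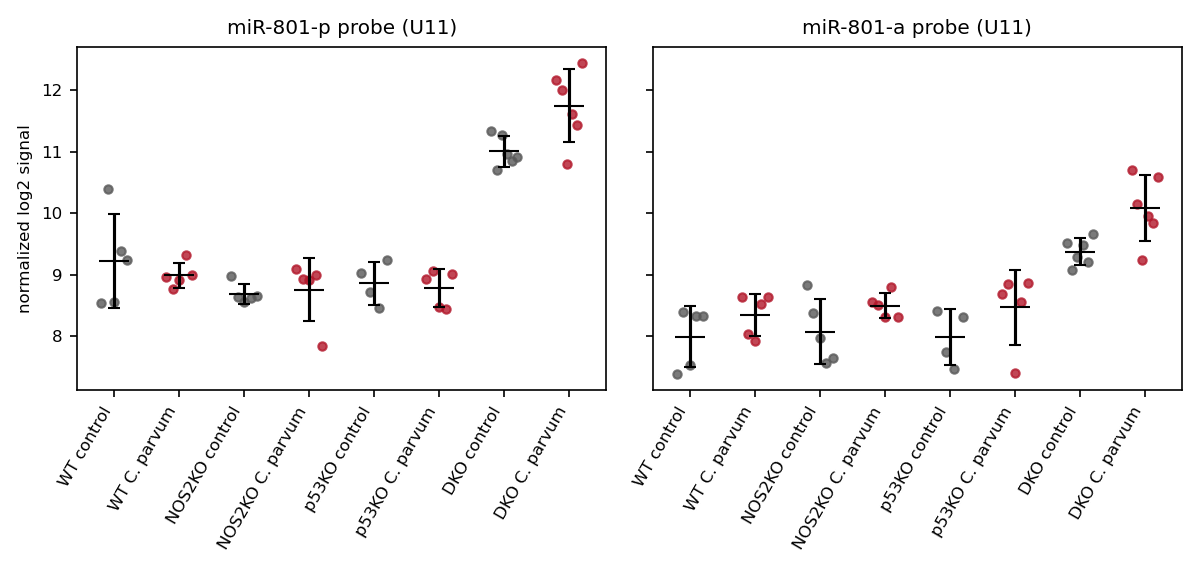
Normalized log2 signal of the 2 miR-801 probes (y axis) by genotype and treatment (x axis), 1 point per array, untreated in grey and treated in red, with mean ± SD in black. The DKO arrays lie above the arrays of all other groups in both panels, from 10.71 upward for miR-801-p and from 9.08 upward for miR-801-a.

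Short of the threshold, the leading microRNA was miR-218, which is encoded within introns of the Slit genes. Its probe miR-218-a read 7.60, 7.59, 7.20, 7.06, 7.13 and 7.37 in treated DKO. In treated p53KO it read 8.06, 8.66, 8.66, 8.18 and 8.08. Every DKO array lay below every p53KO array, at a change of -1.01 ± 0.33 (SE, 95% interval -1.67 to -0.34), but the adjusted p was 0.346 by limma. In a fit of the 11 arrays alone the adjusted p was 0.0177, and with the arrays above the miR-370 value (change -1.01) it was 0.0183, so the call depends on which arrays set the spread. Other probes named for miR-218 did not go with it: miR-218-1-a had a change of 0.02 and miR-218-1-p one of 0.71, neither past the threshold.

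Of the 270 probes measured on all 11 arrays, 5 (1.85%) had groups that did not overlap: the 2 miR-801 probes above, and miR-218-a, miR-29b-1-a and miR-222-a below. miR-29 is known for repressing collagens and other matrix genes. The probe miR-29b-1-a read 10.61, 10.56, 10.68, 10.45, 10.56 and 10.41 in treated DKO. It read 10.75, 10.99, 11.40, 11.15 and 10.75 in treated p53KO. The gap between the groups was only 0.07, and the change of -0.46 ± 0.16 (SE) had an adjusted p of 0.346. Other probes named for miR-29b were miR-29b-2-a at -0.19 ± 0.14 and miR-29b-a at -0.09 ± 0.17, and the seed sharers miR-29a and miR-29c stood at -0.05 ± 0.17 and -0.02 ± 0.19, none past the threshold. In miR-29b-a the groups overlapped. The 3 probes of the family that end in -p and were tested had positive changes, with a median of 0.09, and none passed.

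miR-222, which represses the Kit receptor and the cell cycle inhibitor p27, read 11.80, 11.87, 11.90, 11.65, 11.97 and 11.36 in treated DKO. It read 12.04, 12.21, 12.01, 12.13 and 12.28 in treated p53KO. The gap was 0.04 and array 6 was the lowest. The change was -0.37 ± 0.22 (SE, adjusted p = 0.852 by limma), and its neighbour and seed sharer miR-221 had a change of -0.02 ± 0.19.

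The other probes with the smallest p did not pass either. miR-103-1, of the miR-103 and miR-107 family that lies in introns of pantothenate kinase genes, read 12.82 to 13.38 in treated DKO and 12.52 to 12.87 in treated p53KO, a change of 0.35 ± 0.12 (adjusted p = 0.346), beside 0.18 ± 0.13 for miR-107. miR-142-5p, found in all blood cells, read 11.20 to 12.09 in treated DKO and 11.87 to 12.57 in treated p53KO, a change of -0.51 ± 0.18 (adjusted p = 0.392). miR-181b-2, of a family that tunes lymphocyte receptor signalling, read 11.36 to 12.01 against 10.99 to 11.48, a change of 0.43 ± 0.17 (adjusted p = 0.575), beside 0.25 ± 0.18 for miR-181a and 0.30 ± 0.22 for miR-181c. miR-351, which in the mouse shares its seed with miR-125, had a change of 0.35 ± 0.14, while miR-125a stood at -0.22 ± 0.40 and miR-125b at -0.18 ± 0.27. The probe miR-532-p had a change of 0.55 ± 0.19, miR-126*-5p one of -0.40 ± 0.16 and miR-297-2 one of -0.54 ± 0.22. In each of these the groups overlapped.

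**Figure D3:**
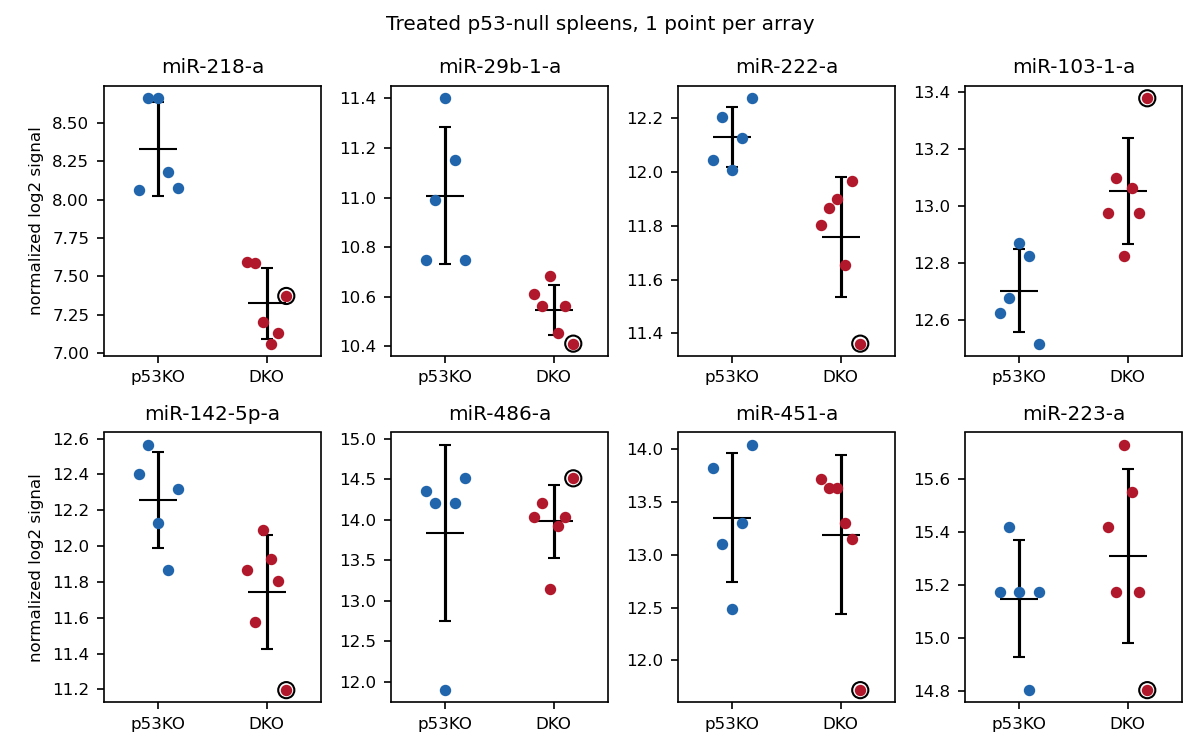
Normalized log2 signal (y axis) of 8 probes on the 5 treated p53KO arrays (blue) and the 6 treated DKO arrays (red), with mean ± SD in black and DKO array 6 circled. The groups separate in miR-218-a, miR-29b-1-a and miR-222-a and overlap in the other 5, where single arrays such as p53KO array 3 for miR-486 (11.90) and DKO array 6 for miR-451 (11.72) stand away from their group.

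No call was made for the red cell microRNAs. miR-486 read 14.04, 14.21, 13.15, 13.93, 14.04 and 14.51 in treated DKO. It read 14.35, 14.21, 11.90, 14.21 and 14.51 in treated p53KO. Array 3 of treated p53KO lay far below the rest, and the change was 0.14 ± 0.38 with all arrays and -0.34 without that one. miR-451, which with miR-144 comes from a single transcript, read 13.72, 13.63, 13.63, 13.30, 13.15 and 11.72 in treated DKO. It read 13.82, 13.10, 12.49, 13.30 and 14.04 in treated p53KO. DKO array 6 was the low one here, and the change was -0.16 ± 0.33 with it and 0.13 without it. miR-144 had a change of 0.46 ± 0.38. The intervals of miR-486 (-0.63 to 0.92) and miR-451 (-0.82 to 0.50) lay inside 2-fold, and that of miR-144 (-0.32 to 1.23) did not. In whole spleen, fewer cells of a type and less RNA per cell cannot be told apart.

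Nor was there a call among 17 lists of microRNAs grouped by cell type, inducer or family. Each member was counted by 1 probe, one not ending in -p, and no -p probe of a list member was called either. Over all 348 tested probes the median change was 0.02. Of the 6 microRNAs of the myeloid list tested, 4 had a positive change and the median was 0.06. In that list miR-223 stood at 0.16 ± 0.18 and miR-27a at -0.36 ± 0.15. Among the positive ones, miR-124a (0.22 ± 0.35) is also in the nervous system list, and miR-142, counted here too, is found in all blood cells. Of 5 lymphoid ones, 3 were positive with a median of 0.25, and miR-150 had a change of -0.20 ± 0.27. Of 7 inflammation microRNAs induced through NF-kB, 4 were positive with a median of 0.01. The best known of them lay near 0: miR-155 at -0.15 ± 0.22, miR-146 at 0.04 ± 0.15 and miR-21 at -0.08 ± 0.20. Of 10 p53-responsive microRNAs, 6 were positive with a median of 0.03. miR-34a, the best known p53 target among microRNAs, read 6.86 to 8.09 in treated DKO and 6.69 to 7.81 in treated p53KO. Its change was 0.37 ± 0.31. Treated mice with p53 read 6.15 to 7.03 in WT and 5.87 to 8.11 on the NOS2KO arrays with a value. The treated p53-null ranges thus reached higher than that of treated WT, and the difference with p53 status itself was not tested.

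Families gave no call. All 8 let-7 members tested had a negative change, from -0.39 to -0.13 with a median of -0.19, and none passed. The 3 let-7 probes that end in -p and were tested went differently, 2 of them positive with a median of 0.45. The lowest array was DKO array 6 for several of the first 8, as for let-7a-2 (11.45, against 12.57 to 13.10 on the other DKO arrays), and without the arrays not above the miR-370 value let-7a-2 changed by -0.17 and let-7g by -0.01. Of 9 members of the cluster that runs from miR-17 to miR-92 and of its paralogs, which promote proliferation of blood progenitors, 8 had a positive change with a median of 0.20, the highest being miR-25 at 0.39 ± 0.20 (adjusted p = 0.795). Of 11 progenitor and megakaryocyte microRNAs, 6 were positive with a median of 0.05. Of 7 stromal and smooth muscle ones, 2 were positive with a median of -0.12, including miR-145 at 0.18 ± 0.18 and miR-214 at -0.29 ± 0.15. Of 6 nervous system ones, 4 were positive with a median of 0.12. Both probes counted for the endothelial list were negative, miR-126-5p at -0.07 ± 0.21 and miR-123 at -0.24 ± 0.16. Other probes of these names had larger negative changes, miR-126*-5p at -0.40 and miR-123-p at -0.42, and were not called either. miR-210, the hypoxia microRNA, had a value on 1 of the 11 arrays and was not tested.

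The intervals bound how large a missed change could be. The 95% interval lay inside 2-fold in either direction for 280 of the 348 probes, with a median reach of 0.49 to each side of the estimate. Only 4 probes had an estimated change beyond 2-fold. Probes that were often missing were not tested, and some of them had an uneven pattern. miR-760 was measured on all 6 treated DKO arrays, at 5.91 to 7.68, and on 1 of the 5 treated p53KO arrays, at 7.39. The next examples were picked after their values were seen. miR-182 was measured on all 5 treated p53KO arrays, at 7.42 to 8.30, and on 2 treated DKO arrays, at 4.86 and 6.23. miR-376a-3p had a value on 4 p53KO arrays and no DKO array, miR-18 on 3 and none, and miR-199b-ap on 1 p53KO and 5 DKO arrays. These probes lie near the dim end of the array, where a missing value and a low one cannot be told apart.

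**Figure D4:**
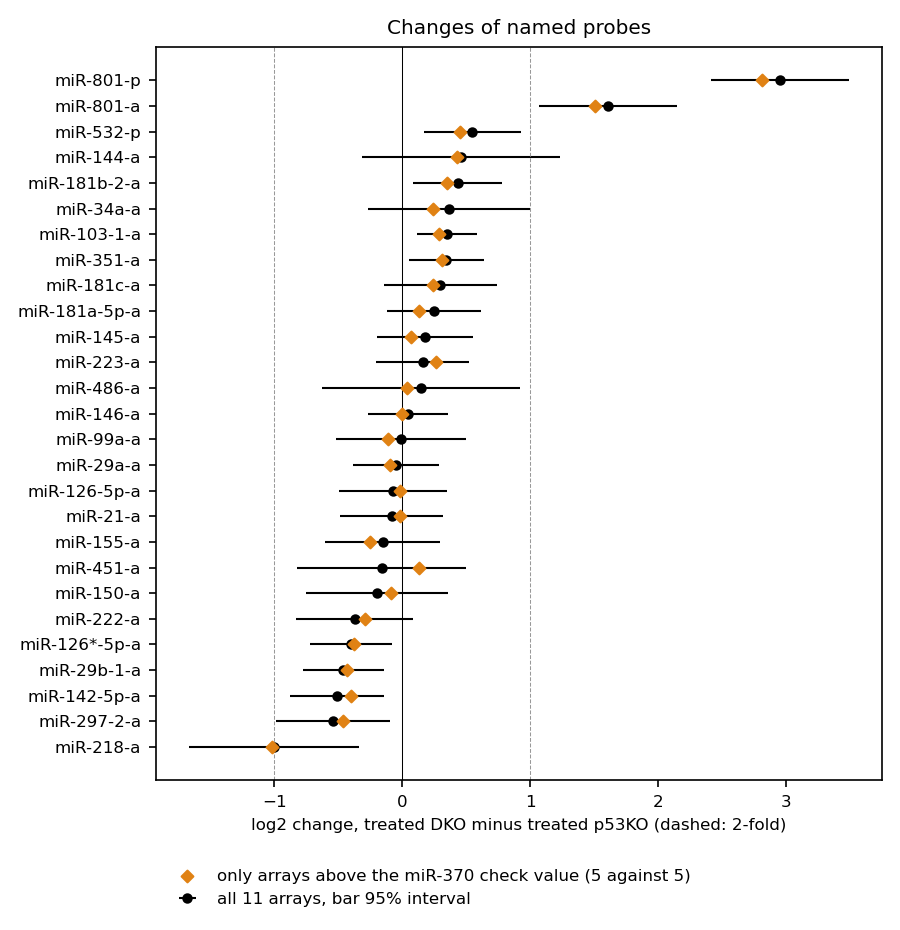
Log2 change of treated DKO minus treated p53KO (x axis) for the probes with the smallest p and a preset group of microRNAs (y axis), black with 95% interval for all 11 arrays and orange for the 5 against 5 arrays above the miR-370 value. Only the 2 miR-801 probes lie wholly beyond the dashed 2-fold line at 1, and the orange point of miR-451 (0.13) lies across 0 from its black one (-0.16).

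Whether the NOS2 difference depended on p53 was tested by setting the change in treated p53-null mice against that in treated p53+/+ mice (NOS2KO minus WT). Of 323 probes, 7 (2.17%) differed, 5 higher and 2 lower, and 49 had an unadjusted p under 0.05. The miR-801-p change was 2.96 with p53 absent and -0.23 ± 0.28 with p53 present, a difference of 3.19 ± 0.38 (SE, adjusted p = 2.39e-07 by limma). For miR-801-a the changes were 1.61 and 0.14 ± 0.28, a difference of 1.47 ± 0.39 (adjusted p = 0.0434). Of the 10 arrays of treated p53+/+ mice, only treated NOS2KO arrays 3, 4 and 5 were above the miR-370 value. With that split as a term in the fit the differences were 2.84 (adjusted p = 2.39e-05) and 1.39 (adjusted p = 0.256), and calls were made for 2 probes in place of 7, miR-801-p and miR-341.

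miR-341, a mouse microRNA of the imprinted Dlk1-Dio3 region, had the next smallest p. It read 9.70, 9.90, 10.39, 10.43, 10.39 and 9.84 in treated DKO and 10.17, 10.37, 10.47, 10.30 and 10.47 in treated p53KO, a change of -0.25 ± 0.22. In treated NOS2KO it read 9.27, 9.25, 10.30, 10.17 and 10.49, and in treated WT 8.72, 8.44, 8.17, 7.81 and 8.29, a change of 1.61 ± 0.23. The difference between the 2 changes was -1.86 ± 0.32 (adjusted p = 0.000181 by limma). Most of it came from the low treated WT arrays, none of which was above the miR-370 value, and the treated NOS2KO arrays were themselves split by it, 9.25 and 9.27 not above and 10.17 to 10.49 above. With the split as a term the difference was -1.22 (adjusted p = 0.0126 by limma). The split is itself set by a microRNA value of these arrays, so that term does not show whether the difference is technical. The other leading probes, miR-377 (0.95 ± 0.25, adjusted p = 0.0434) and miR-378-3p/422b (-1.44 ± 0.39, adjusted p = 0.0452), had adjusted p-values of 0.594 and 0.256 with the split as a term. In treated p53+/+ mice on their own, 8 of 338 probes (2.37%) were called.

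Whether the difference depended on treatment was tested against the untreated p53-null mice (DKO minus p53KO). Of 320 probes, 1 (0.312%) differed, and 52 had an unadjusted p under 0.05. In untreated mice on their own 69 of 334 probes (20.7%) were called, and 7 with the miR-370 split as a term, where 5 of the 6 untreated DKO arrays were not above the value and all 4 untreated p53KO arrays were. Group and split are therefore nearly the same thing in the untreated mice and can hardly be told apart there.

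miR-801 was higher in DKO in both settings. The change in untreated mice was 2.14 ± 0.28 for miR-801-p and 1.39 ± 0.28 for miR-801-a (adjusted p = 2.12e-06 and 0.00124), and the differences from the treated mice were 0.81 ± 0.39 (adjusted p = 0.286) and 0.22 ± 0.39 (adjusted p = 0.781). The single call was miR-297b-p, of a repeated mouse microRNA family, with changes of 0.17 ± 0.19 in treated and -0.997 ± 0.20 in untreated mice and a difference of 1.16 ± 0.27 (adjusted p = 0.0468 by limma). With the split as a term its adjusted p was 0.116.

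The red cell microRNAs did not pass the test of a dependence on treatment. In untreated p53KO, miR-486 read 11.90, 10.71, 10.64 and 10.59, and in untreated DKO it read 13.63, 13.01, 12.82, 12.98, 13.44 and 12.87. That untreated comparison called 69 of 334 probes (20.7%), and its groups can hardly be told apart from the miR-370 split. After treatment the means were 13.83 ± 1.09 (SD, n = 5) in p53KO and 13.98 ± 0.45 (SD, n = 6) in DKO. The NOS2 change was 2.17 ± 0.41 untreated and 0.14 ± 0.38 treated, a difference of -2.02 ± 0.56 that did not pass (adjusted p = 0.0632 by limma). For miR-451 the changes were 1.32 ± 0.35 and -0.16 ± 0.33, a difference of -1.48 ± 0.48 (adjusted p = 0.0993), and with the split as a term it was -2.12 (adjusted p = 0.0149), the 1 call of that fit. For miR-144 they were 1.86 ± 0.40 and 0.46 ± 0.38, a difference of -1.40 ± 0.55 (adjusted p = 0.219).

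miR-218-a was lower in DKO than in p53KO in both settings. It read 8.70, 8.62, 7.98 and 8.04 in untreated p53KO and 5.51, 5.23, 7.28, 6.23, 5.55 and 6.49 in untreated DKO, a change of -2.28 ± 0.35 (adjusted p = 3.71e-05 by limma). The difference from the treated mice was 1.28 ± 0.48 (adjusted p = 0.197). The untreated change can hardly be told apart from the miR-370 split. The probe miR-218-a read 6.76 to 8.72 in treated NOS2KO and had no value on any treated WT array, so its dependence on p53 was not tested.

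**Figure D5:**
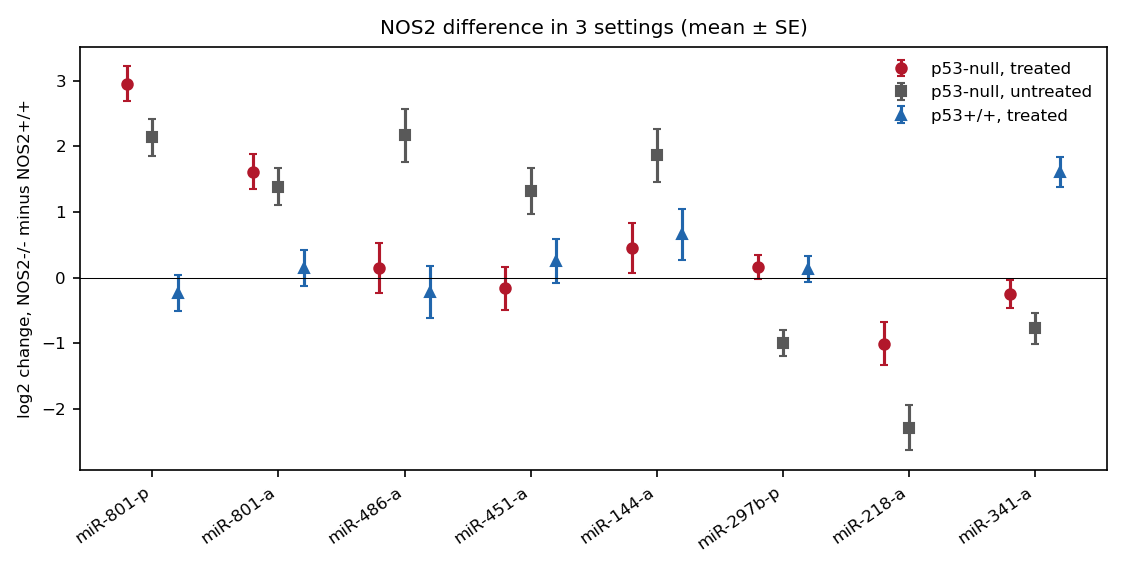
Log2 change of NOS2-/- minus NOS2+/+ spleens (y axis, mean ± SE) for 8 probes (x axis) in treated p53-null mice (red circles), untreated p53-null mice (grey squares) and treated p53+/+ mice (blue triangles). miR-801 is high in both p53-null settings and near 0 in p53+/+ mice, miR-486, miR-451 and miR-144 stand at 1.32 to 2.17 in untreated and at -0.16 to 0.46 in treated p53-null mice, and miR-341 stands at 1.61 in treated p53+/+ mice, for which miR-218-a has no value.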

How the data were processed

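The deposited table gives processed log2 values of 637 probe rows on 41 one-channel arrays, from biotin-labelled cDNA of spleen total RNA per the labels' protocols. Base 2 was inferred from their size (at most 16.9), and every change and fold rests on it. The sources used here do not name the authors' scanner, background correction or normalization, nor the meaning of the endings -a (397 probes) and -p (236). Of all cells, 40.4% hold no value. Array medians as deposited over the 227 probes measured everywhere ran from 9.87 to 10.6, so arrays were quantile normalized, ranking missing cells lowest and leaving them missing. Changes are thus relative to the bulk of probes.

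One model of 8 group means was fitted per probe in R 4.3.3 (limma 3.58.1, eBayes variances), and p-values were adjusted by Benjamini-Hochberg over each comparison's probes at 0.05. The fit was tested on simulated data. Array counts were compared by exact permutation (scipy 1.17.1). No 2 arrays were identical. Sequences and names come from RefSeq (609 probes matched). The comparison, lists and named probes were chosen with earlier results of these data known. Named were all probes past the threshold, the 10 smallest p, the 5 smallest p past the threshold of each difference (or the 3 smallest where none passed), a preset group, up to 4 per list, and probes measured on all arrays of 1 group and at most 1 of the other. Alternatives covered normalization, missing cells, arrays fitted, array weights, the miR-370 split, replicate numbers and leaving out each array.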

Additional observations from a re-analysis of the deposited data

Results flagged for a closer look

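Among 124 groups of array values checked for a single array far from the rest, 12 had one, a count that includes some by chance, and 6 of the 12 were on treated DKO array 6. The miR-370 value of array 6 was known beforehand, since that probe had already set the array apart. let-7a-2 and let-7g are of 1 family, so the 6 are not separate pieces of evidence. On that array miR-451 was low (11.72), as were let-7a-2 (11.45, others 12.57 to 13.10), let-7g (10.37, others 11.25 to 11.58) and miR-370 (9.08, others 11.13 to 11.90), while miR-128b was high (9.19, others 8.04 to 8.44) and so was its median over common probes as deposited (10.23, others 10.09 to 10.12). On treated p53KO array 3, miR-801-a (7.40, others 8.56 to 8.87) and miR-486 (11.90, others 14.21 to 14.51) were low. On treated p53KO array 4, miR-351 (8.02, others 8.20 to 8.27) and miR-196a (7.06, others 7.76 to 7.90) were low and miR-370 was high (12.40, others 11.43 to 11.61). On treated p53KO array 1, miR-126-5p was low (12.13, others 12.63 to 12.72).

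The NOS2 change among treated mice differed with p53 status by a test of the difference in 7 probes: miR-801-p (3.19), miR-341 (-1.86), miR-377 (0.95), miR-801-a (1.47), miR-378-3p/422b (-1.44), miR-9-3-5p (1.19) and miR-543 (0.997). It differed with treatment in p53-null mice for miR-297b-p (1.16). With the miR-370 split as a term only miR-801-p and miR-341 kept their call, and the part of the split in the others was not tested further. The split is set by a microRNA value of these same arrays and not by a label. A call kept or lost with that term therefore does not show whether a difference is technical.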

How the results depend on the processing

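Both miR-801 probes were called in the comparison of treated DKO and p53KO under all 22 alternatives, at changes of 2.81 to 3.14 (miR-801-p) and 1.34 to 1.78 (miR-801-a), and leaving out each array in turn gave 2 calls throughout. With missing cells set to a low value (4.86) there were 4 calls, the added ones being miR-182 and miR-376a-3p. Both were admitted to that fit only through their values in treated p53KO. In treated DKO they were mostly or wholly missing, so the filled constant set those 2 calls and no difference can be read from them. The replicate numbers of the titles did not pair the arrays (correlations of same-numbered arrays 0.37, 0.22, -0.02, 0.03 and 0.26, and only numbers 1 and 2 correlated best with their own number); with the replicate block, calls numbered 2 in the main comparison, 3 for the difference by p53 and 5 for the difference by treatment. The difference in measured probes per array stayed positive, from 9.20 to 26.4.

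The difference by p53 (7 calls) had 3 calls as deposited, 4 with limma's normalizeQuantiles, 2 with only the arrays compared, 15 with array weights and 2 with the miR-370 split as a term. Leaving out 1 array gave 2 to 18 calls: 18 without treated NOS2KO array 2, 11 without treated p53KO array 4, 4 without treated WT array 2 or 4, p53KO array 2 or DKO array 5, 3 without WT array 3 or DKO array 3, and 2 without WT array 1, NOS2KO array 4, p53KO array 1 or 3 or DKO array 6. The calls of miR-801-p and miR-341 stood in every alternative run.

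The difference by treatment (1 call) had 5 calls as deposited, 0 with normalizeQuantiles (37 at an unadjusted p under 0.05 by limma), 2 with 2 measured values per group, 3 with the low value and 36 with array weights. Leaving out 1 array gave 0 to 15 calls (35 to 65 at an unadjusted p under 0.05): 15 without untreated DKO array 6, 12 without treated p53KO array 3, 5 without treated DKO array 6, 4 without untreated p53KO array 1 or DKO array 4, 2 without untreated p53KO array 4, and 0 without treated p53KO array 2, 4 or 5, treated DKO array 1, 2, 3 or 4, untreated p53KO array 2 or 5, or untreated DKO array 1, 2 or 3. A fit of only the arrays above the miR-370 value could not be made for either difference, since a group kept too few arrays.

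Of the named probes, 13 changed sign in the main comparison under some alternative, never past the threshold; the cause was not tested. With array weights these were miR-486 (-0.25), miR-21 (0.0024), miR-99a (0.073), miR-126-5p (0.028), miR-29c (0.032), miR-497 (-0.10) and miR-375 (0.084). With normalizeQuantiles they were miR-99a (0.12), miR-29a (0.041), miR-132 (0.030), miR-29c (0.088) and miR-221 (0.076). miR-221 also turned as deposited (0.020), median centred (0.041) and with the split as a term (0.0073), where miR-451 stood at 0.00024. With only the arrays above the miR-370 value miR-451 was 0.13 and miR-146 was -0.0035, and with the low value miR-9-3-5p was -0.57. Leaving out 1 array gave -0.34 to 0.31 for miR-486, -0.37 to 0.13 for miR-451, -0.053 to 0.19 for miR-146, -0.19 to 0.031 for miR-21, -0.19 to 0.13 for miR-99a, -0.14 to 0.035 for miR-29a, -0.14 to 0.047 for miR-29c, -0.054 to 0.21 for miR-497, -0.065 to 0.033 for miR-221 and -0.62 to 0.30 for miR-375.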
